A study of Mus musculus with 8 samples.

Results

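The ATF4 stress response and the amino acid metabolism tied to it were followed through 43 genes in regulatory T cells (Tregs) polarized with or without oxPAPC. The genes were taken by symbol from the deposited table of counts, and all 43 were among its 19330 genes. They comprise 13 stress regulators, 12 enzymes of amino acid and one-carbon metabolism, 7 amino acid transporters and 11 tRNA synthetases. Naive CD4+ T cells from the spleen of mice labelled B6 were turned into Tregs in culture for 3 days and their RNA was sequenced. In the oxPAPC group (4 libraries) the culture held oxPAPC, a mixture of oxidized forms of the phospholipid PAPC, and in the control group (4 libraries) it did not, with the polarization common to both. The labels used here give no dose of oxPAPC, no age of the mice and no word on whether the replicates are separate mice or cultures. P-values therefore cover the spread among these libraries, which may be technical. Each library is bulk RNA, in which fewer cells of a type and less RNA per cell cannot be told apart.

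Cells that lack amino acids, or whose endoplasmic reticulum is under stress, phosphorylate the translation factor eIF2alpha. Most translation then slows, while translation of the Atf4 mRNA increases, so that the transcription factor ATF4 is controlled largely at the level of translation and its mRNA is not a measure of its protein. ATF4 induces further regulators such as CHOP (encoded by Ddit3), enzymes and transporters that restore amino acids, and tRNA synthetases that load them onto tRNA. It binds DNA with partners of the C/EBP family at a composite site whose core can be written TGATGNAA, with N for any base. Activated T cells draw on the same enzymes and transporters while they grow and divide.

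The oxPAPC libraries held 14017583 to 20554614 gene counts and the control libraries 16416538 to 21619731. The cells carried T cell and Treg transcripts: Foxp3, the lineage factor of Tregs, lay at 88.4 to 210.3 CPM in oxPAPC libraries and 117 to 199 CPM in control libraries, and Cd3e of the T cell receptor complex at 85.3 to 153 CPM in oxPAPC libraries and 116 to 154 CPM in control libraries. Summed over 6 B cell markers the level was 16.0 to 19.4 CPM in oxPAPC libraries and 10.4 to 15.2 CPM in control libraries, with 3 of 6 tested markers higher. Over 5 of 6 macrophage and monocyte markers it was 9.08 to 11.3 CPM in oxPAPC libraries and 3.77 to 4.79 CPM in control libraries, with 1 of 4 tested higher. Over 4 of 6 dendritic cell markers it was 12.5 to 15.3 CPM in oxPAPC libraries and 6.18 to 10.8 CPM in control libraries, with 1 of 3 tested higher, and over 4 of 6 CD8 T and NK cell markers it was 80.3 to 114 CPM in oxPAPC libraries and 62.3 to 91.1 CPM in control libraries, with 1 of 4 higher. The 6 T cell markers summed to 1429.9 to 1658 CPM in oxPAPC libraries and 1649 to 1892 CPM in control libraries, with 1 of 6 lower, the costimulatory receptor gene Cd28 (log2 fold change -0.85 ± 0.18, SE, edgeR adjusted p = 0.00651). The part of these cells in the results below was not tested. Gm26917, a noncoding gene that took the most counts, made up 9.35 to 19.4% of the counts of oxPAPC libraries and 8.59 to 29.1% of those of control libraries, the highest in control library 2.

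The stress genes Ddit3, Chac1, Trib3 and Nupr1, all known targets of the ATF4 response, were 3.08- to 3.70-fold lower in the oxPAPC libraries, while Sesn2 of the same list was 1.61-fold higher and the Atf4 mRNA was not called. Among the metabolic genes Pycr1, Pck2, Asns and Slc1a4 were lower and Shmt1, Mthfd1l and Slc1a5 higher. All 43 genes passed the filter on low counts. With edgeR (quasi-likelihood test, Benjamini-Hochberg adjusted over all 16434 genes tested, threshold 0.05), 9 of the 43 genes were lower and 4 higher in the oxPAPC libraries, and 30 did not pass. Over all genes tested the shares called were 6.52% lower and 6.75% higher, 13.3% in all, against 30.2% of the 43 genes. The median log2 fold change, oxPAPC over control, was -0.23 for the 43 genes and -0.01 for all genes tested. The groups did not overlap in 11 genes that lay lower and 5 that lay higher, against 9.86% and 9.49% of all genes tested. Beside the called genes these include Cebpg and Ppp1r15a, which lay lower, and Psph, which lay higher, with 31.8 to 38.2 CPM in oxPAPC libraries and 27.7 to 31.6 CPM in control libraries. Under library size scaling the median of all genes was 0.12, 71.5% of all calls were higher against 50.9% with TMM scaling, and edgeR called 7 of the 43 genes lower and 4 higher.

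**Figure D1:**
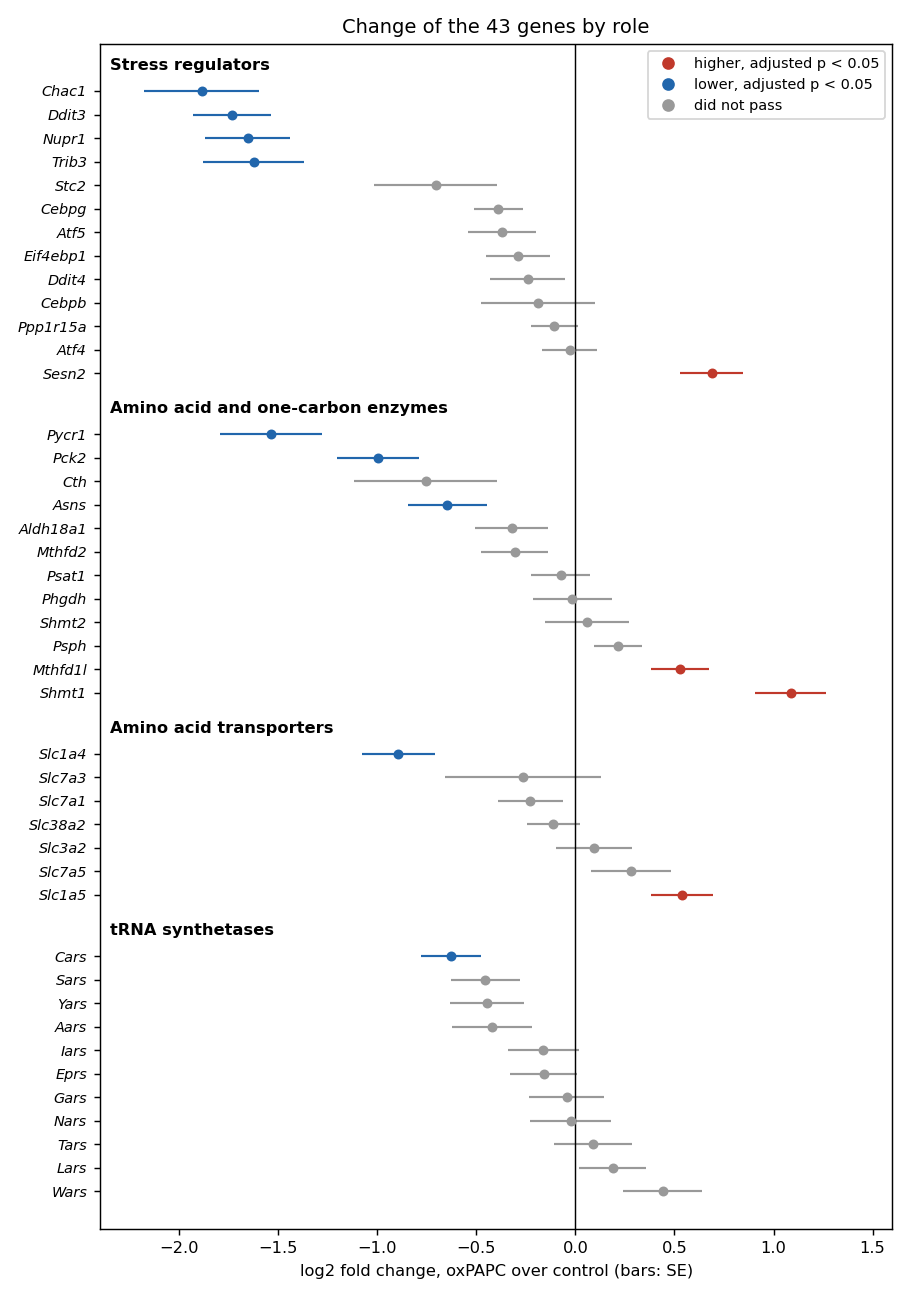
Log2 fold change, oxPAPC over control, of the 43 genes grouped by role, with SE bars; blue marks genes called lower, red genes called higher and grey genes that did not pass. The 4 blue stress regulators lie between -1.89 and -1.62, while Atf4 lies at -0.03.

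The promoter windows that hold the core of the ATF4 composite site are shown first. Windows run from 250 bases before to 50 bases after the start of a gene in RefSeq on build GRCm38.p6, and 34 of the 43 genes had an entry. Those without one are Eif4ebp1, Cth, Slc7a3, Slc7a5, Slc1a5, Cars, Lars, Nars and Wars. TGATGNAA was searched on both strands, where a match on the opposite strand reads TTNCATCA. Of 8 genes that were lower and had an entry, 7 held a match, as did 0 of 3 that were higher and 5 of 23 that did not pass. Over all 32851 windows of the table the share with a match was 3.97%, and over 10487 tested genes with an entry it was 2.81%. The 43 genes were chosen as genes of the ATF4 response, so a higher share among them is no independent result. The 7 lower genes are given below on the strand of the gene, 5′ to 3′, with the match in capitals.
Chac1 (chr2:119351023-119351082, plus strand): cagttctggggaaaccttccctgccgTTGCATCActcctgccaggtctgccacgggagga
Trib3 (chr2:152344035-152344072, minus strand): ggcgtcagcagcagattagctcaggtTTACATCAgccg
Nupr1 (chr7:126625547-126625606, minus strand): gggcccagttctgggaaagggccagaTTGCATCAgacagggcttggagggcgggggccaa
Asns (chr6:7693199-7693258, minus strand): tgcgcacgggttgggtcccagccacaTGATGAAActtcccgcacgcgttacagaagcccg
Pycr1 (chr11:120643818-120643877, minus strand): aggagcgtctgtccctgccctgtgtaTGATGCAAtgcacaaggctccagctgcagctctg
Pck2 (chr14:55540137-55540196, plus strand): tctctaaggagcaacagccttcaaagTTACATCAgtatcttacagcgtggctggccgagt
Slc1a4 (chr11:20332688-20332743, minus strand): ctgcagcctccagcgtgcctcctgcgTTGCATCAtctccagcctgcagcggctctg
The first base of the match lay 193 bases before the start in Chac1, 110 in Nupr1, 103 in both Pycr1 and Pck2, 23 in Asns and 4 in Slc1a4, where it runs across the start. In Trib3 it was base 15 counted from the start. These starts are those of RefSeq, and the deposited table places some genes otherwise. By its coordinates the matches of Nupr1 and Asns lie inside the gene, and that of Trib3 lies before its start. The matches of Chac1, Nupr1, Pycr1 and Slc1a4 carry the same letters, TTGCATCA or its reverse complement TGATGCAA. Ddit3, which was lower, had no match in its window, which says nothing of sites elsewhere. A match is a description of letters and not a measured binding site.

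**Figure D2:**
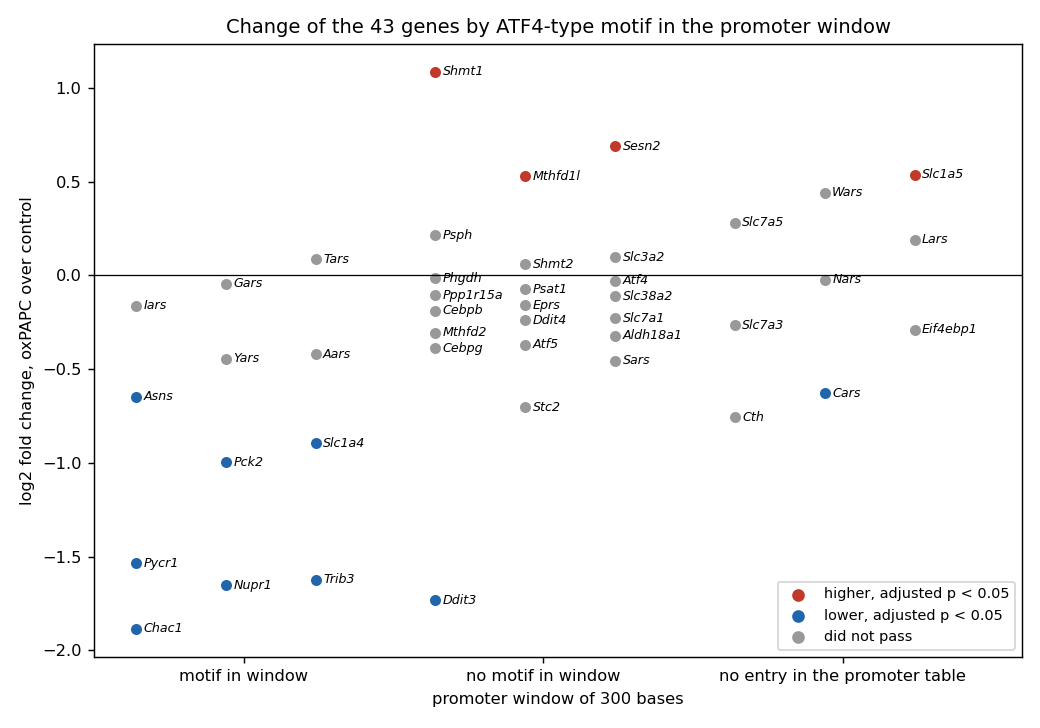
Log2 fold change, oxPAPC over control, of the 43 genes by whether TGATGNAA occurs in the promoter window of 300 bases; colours mark the call and horizontal spread is for legibility only. The left column holds 7 of the lower genes and none of the higher ones, with 5 grey genes between -0.44 and 0.09.

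The same letters were also looked for in all tested genes with a window. Of 295 tested genes with a match, 30 were lower and 20 higher (10.2% and 6.78%), with a median log2 fold change of -0.10. Without the genes described here, 23 of 283 were lower (8.13%) and the median was -0.09. Among 10192 tested genes with a window and no match, 7.63% were lower and the median was -0.01. Outside these 43 genes, the shares of lower genes with and without the motif lay close together; no test was made of them.

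Of the 13 stress regulators, 4 were lower, 1 was higher and 8 did not pass, with a median log2 fold change of -0.37. The share called was 38.5%, against 13.3% of all genes tested. Coordinates below are those of the deposited table, on GRCm38. Atf4 (chromosome 15 from 80255184 to 80257541) had 134, 122, 149 and 127 CPM in oxPAPC libraries 1 to 4, against 133, 145, 119 and 144 CPM in control libraries 1 to 4. The groups overlapped and Atf4 did not pass (log2 fold change -0.03 ± 0.14, SE, edgeR adjusted p = 0.925). With library size scaling its value was 0.12, which is close to the shift of all genes under that scaling. Ddit3 (chromosome 10 from 127290774 to 127296288), which encodes CHOP, a transcription factor that drives cell death under lasting stress, had 5.37, 5.42, 6.13 and 7.24 CPM in oxPAPC libraries 1 to 4, against 16.7, 28.2, 16.6 and 19.3 CPM in control libraries 1 to 4. Every oxPAPC library lay below every control library, and Ddit3 was 3.32-fold lower (log2 fold change -1.73 ± 0.20, SE, edgeR adjusted p = 0.000109). Chac1 (chromosome 2 from 119351229 to 119354381), an enzyme that breaks down glutathione and is induced by ATF4, had 2.09, 2.05, 2.47 and 1.17 CPM in oxPAPC libraries 1 to 4, against 8.37, 9.87, 5.20 and 5.51 CPM in control libraries 1 to 4. It was low in all libraries, with 23 to 56 counts in oxPAPC and 114 to 131 in control libraries, and 3.70-fold lower with oxPAPC (log2 fold change -1.89 ± 0.29, SE, edgeR adjusted p = 0.000814).

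Trib3 (chromosome 2 from 152337422 to 152344032), a pseudokinase induced by ATF4 and CHOP, had 2.46, 2.44, 4.76 and 2.53 CPM in oxPAPC libraries 1 to 4, against 9.50, 11.6, 7.26 and 9.83 CPM in control libraries 1 to 4. Library 3 of the oxPAPC group stood above the others of its group but still below all controls, and Trib3 was 3.08-fold lower (log2 fold change -1.62 ± 0.25, SE, edgeR adjusted p = 0.000972). Nupr1 (chromosome 7 from 126623249 to 126630861), a small stress-induced chromatin protein, had 4.77, 2.97, 4.32 and 4.15 CPM in oxPAPC libraries 1 to 4, against 13.2, 16.7, 9.81 and 11.5 CPM in control libraries 1 to 4. The groups stood apart, and Nupr1 was 3.15-fold lower (log2 fold change -1.65 ± 0.21, SE, edgeR adjusted p = 0.000279). The calls of Ddit3, Chac1, Trib3 and Nupr1 held in each of the alternatives that tested them. Sesn2 (chromosome 4 from 132492032 to 132510501), a leucine sensor that restrains the growth kinase mTORC1, went the other way, with 47.7, 37.6, 59.6 and 48.2 CPM in oxPAPC libraries 1 to 4, against 27.2, 34.4, 25.8 and 32.5 CPM in control libraries 1 to 4. Its lowest oxPAPC library lay above its highest control library, and it was 1.61-fold higher (log2 fold change 0.69 ± 0.16, SE, edgeR adjusted p = 0.0116). The 8 regulators that did not pass, Atf4 among them, all had negative log2 fold changes, of which those of Atf4 and Ppp1r15a were positive with library size scaling. Cebpg, a C/EBP partner of ATF4, came nearest, with 37.5 to 44.5 CPM in oxPAPC libraries and 50.9 to 56.3 CPM in control libraries, which do not overlap (log2 fold change -0.39 ± 0.12, SE, edgeR adjusted p = 0.0521). It passed where genes had to average 5 CPM (edgeR adjusted p = 0.0370), with DESeq2 (adjusted p = 0.0481) and with an offset for GC content and length (edgeR adjusted p = 0.0277). Atf5, a close relative of Atf4, had a log2 fold change of -0.37, and the secreted glycoprotein gene Stc2 -0.70, at only 1.25 to 2.01 CPM in oxPAPC libraries and 1.36 to 3.58 CPM in control libraries. Ddit4, an inhibitor of mTORC1, had a log2 fold change of -0.24, Eif4ebp1, an inhibitor of cap-dependent translation, -0.29, and Cebpb -0.19. Ppp1r15a, which encodes the GADD34 subunit that returns eIF2alpha to its unphosphorylated form, varied little, with 23.2 to 25.5 CPM in oxPAPC libraries and 25.6 to 26.3 CPM in control libraries (log2 fold change -0.11 ± 0.12, SE, edgeR adjusted p = 0.618).

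**Figure D3:**
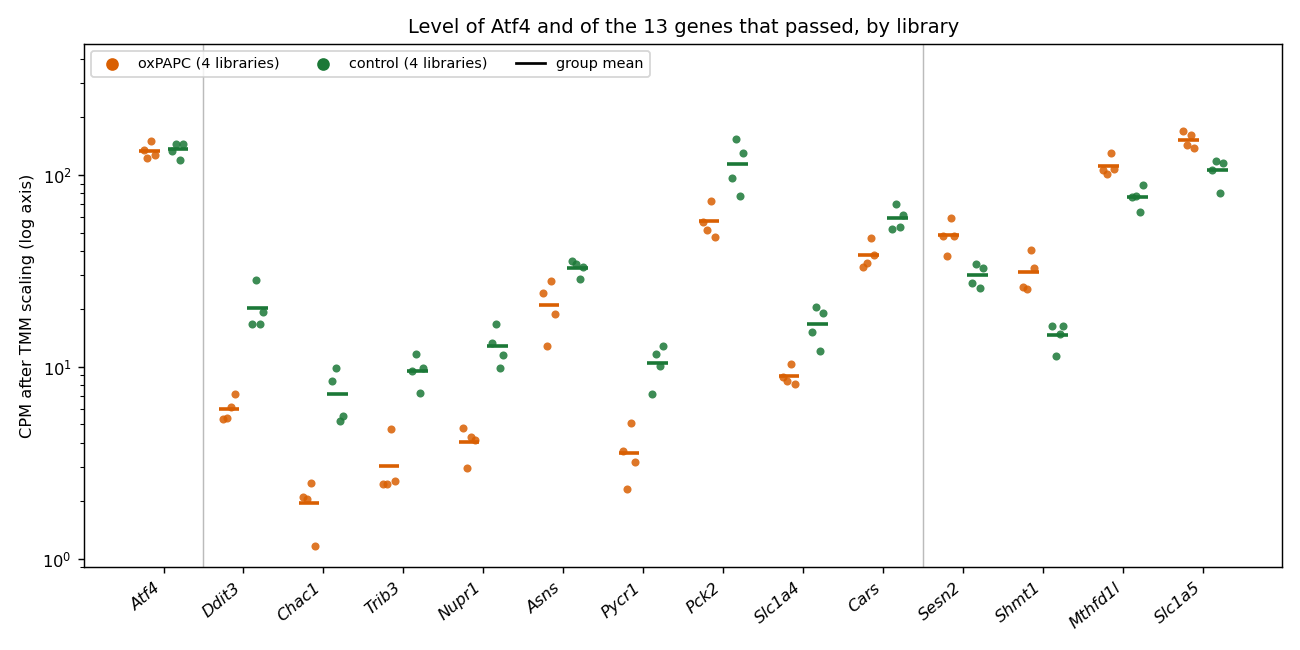
CPM after TMM scaling (log axis) of Atf4 and of the 13 genes that passed, with 1 point per library, oxPAPC in orange and control in green, and bars at group means. The vertical lines part Atf4, the 9 lower genes and the 4 higher genes; the groups overlap for Atf4 and for none of the other 13.

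Of the 12 enzymes, 3 were lower, 2 higher and 7 did not pass (41.7% called, against 13.3% of all genes tested). Serine synthesis showed no called gene. Phgdh, its first enzyme, had the highest level per length of the 43 genes, at 182 CPM per kb in oxPAPC and 184 CPM per kb in control libraries (kb of annotated exon). It had 451, 408, 557 and 389.7 CPM in oxPAPC libraries 1 to 4, against 499, 507, 314 and 505 CPM in control libraries 1 to 4 (log2 fold change -0.02 ± 0.20, SE, edgeR adjusted p = 0.973). Psat1 and Psph, which complete the path, had log2 fold changes of -0.07 and 0.22 (edgeR adjusted p of 0.795 and 0.286). One-carbon metabolism passes the carbon of serine to folate through a cytosolic and a mitochondrial arm. Shmt1 (chromosome 11 from 60788104 to 60811718), the cytosolic serine hydroxymethyltransferase, had 25.9, 25.3, 40.7 and 32.7 CPM in oxPAPC libraries 1 to 4, against 16.3, 11.3, 14.7 and 16.3 CPM in control libraries 1 to 4. It was 2.12-fold higher without overlap (log2 fold change 1.09 ± 0.18, SE, edgeR adjusted p = 0.00147). Its mitochondrial counterpart Shmt2 overlapped between the groups, with 86.3, 76.7, 148 and 96.2 CPM in oxPAPC libraries 1 to 4, against 91.8, 106, 73.3 and 121 CPM in control libraries 1 to 4 (log2 fold change 0.06 ± 0.21, SE, edgeR adjusted p = 0.893). Mthfd1l (chromosome 10 from 3973118 to 4167081), which releases formate from mitochondria, had 105, 101, 129.6 and 107 CPM in oxPAPC libraries 1 to 4, against 76.5, 77.7, 63.8 and 88.8 CPM in control libraries 1 to 4. It was 1.44-fold higher (log2 fold change 0.53 ± 0.15, SE, edgeR adjusted p = 0.0287), a call lost without oxPAPC replicate 1, 3 or 4 or control replicate 1, 2 or 3 (edgeR adjusted p of 0.0558 to 0.0730) and with oxPAPC replicate 3 and control replicate 2 left out together (0.110). Mthfd2, the mitochondrial enzyme before it, did not pass (log2 fold change -0.31 ± 0.17, SE, edgeR adjusted p = 0.260).

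The lower enzymes make proline, asparagine and phosphoenolpyruvate. Pycr1 (chromosome 11 from 120635712 to 120643769), the mitochondrial enzyme of the last step to proline, had 3.65, 2.31, 5.11 and 3.19 CPM in oxPAPC libraries 1 to 4, against 7.17, 11.7, 10.1 and 12.8 CPM in control libraries 1 to 4. It was 2.90-fold lower without overlap (log2 fold change -1.54 ± 0.26, SE, edgeR adjusted p = 0.00150). Aldh18a1, which starts the same path, had a log2 fold change of -0.32 (edgeR adjusted p = 0.287). Pck2 (chromosome 14 from 55540266 to 55551242), the mitochondrial phosphoenolpyruvate carboxykinase, had 56.5, 51.8, 73.0 and 47.6 CPM in oxPAPC libraries 1 to 4, against 96.5, 154, 77.6 and 129 CPM in control libraries 1 to 4. The highest oxPAPC library lay just below the lowest control library, and Pck2 was 1.99-fold lower (log2 fold change -0.995 ± 0.21, SE, edgeR adjusted p = 0.00639). Asns (chromosome 6 from 7675169 to 7693254), asparagine synthetase and a classical ATF4 target, had 24.2, 12.8, 27.8 and 18.8 CPM in oxPAPC libraries 1 to 4, against 35.4, 34.4, 28.6 and 32.9 CPM in control libraries 1 to 4. It was 1.57-fold lower (log2 fold change -0.65 ± 0.20, SE, edgeR adjusted p = 0.0455), with a narrow gap between the groups. The call of Asns was lost without oxPAPC replicate 1, 2 or 4 or control replicate 1, 2 or 4 (edgeR adjusted p of 0.0612 to 0.114), with RLE scaling (0.0586), library size scaling (0.160), no filter (0.0520) and DESeq2 (0.0526). Cth, which makes cysteine, was low, with 0.594 to 2.16 CPM in oxPAPC libraries and 2.04 to 2.72 CPM in control libraries (edgeR adjusted p = 0.195).

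Of the 7 transporters, 1 was lower and 1 higher (28.6% called, against 13.3% of all genes tested). Slc1a4 and Slc1a5, which encode the neutral amino acid transporters ASCT1 and ASCT2 of the same family, moved apart. Slc1a4 (chromosome 11 from 20302180 to 20332713) had 8.80, 8.39, 10.3 and 8.16 CPM in oxPAPC libraries 1 to 4, against 15.1, 20.4, 12.0 and 19.1 CPM in control libraries 1 to 4. It was 1.86-fold lower without overlap (log2 fold change -0.89 ± 0.18, SE, edgeR adjusted p = 0.00585), and the call held in every alternative run. Slc1a5 (chromosome 7 from 16781340 to 16798274), the main glutamine carrier of activated T cells, had 168, 143, 162 and 137 CPM in oxPAPC libraries 1 to 4, against 106, 118, 80.5 and 116 CPM in control libraries 1 to 4. It was 1.45-fold higher (log2 fold change 0.54 ± 0.16, SE, edgeR adjusted p = 0.0366), but the call was lost without any single library (edgeR adjusted p of 0.0530 to 0.104) and with oxPAPC replicate 3 and control replicate 2 left out together (0.0651). The leucine carrier made of the Slc7a5 and Slc3a2 proteins did not pass: Slc7a5 had 79.4 to 161 CPM in oxPAPC libraries and 80.3 to 106 CPM in control libraries (log2 fold change 0.28) and Slc3a2 had 70.7 to 136 CPM in oxPAPC libraries and 78.8 to 104 CPM in control libraries (0.10), with edgeR adjusted p of 0.409 and 0.799. Slc7a1, a carrier of arginine and lysine, and Slc38a2, a sodium-coupled carrier of small neutral amino acids, had log2 fold changes of -0.23 and -0.11 (edgeR adjusted p of 0.409 and 0.648). Slc7a3, another arginine carrier, had the lowest level per length of the 43 genes, at 0.239 CPM per kb in oxPAPC and 0.294 CPM per kb in control libraries.

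Of the 11 tRNA synthetases, 1 was lower, none was higher and 10 did not pass, with a median log2 fold change of -0.16. The share called was 9.09%, below the 13.3% of all genes tested. Cars (chromosome 7 from 143557230 to 143600090), which loads cysteine, had 33.2, 34.7, 47.0 and 38.2 CPM in oxPAPC libraries 1 to 4, against 52.0, 70.3, 53.2 and 61.5 CPM in control libraries 1 to 4. The groups stood apart and Cars was 1.55-fold lower (log2 fold change -0.63 ± 0.15, SE, edgeR adjusted p = 0.0147). The call was lost without oxPAPC replicate 1 (0.0558) or control replicate 2 (0.0543) and with library size scaling (edgeR adjusted p = 0.130). Sars, Yars and Aars, for serine, tyrosine and alanine, came next, with log2 fold changes of -0.46, -0.44 and -0.42 (edgeR adjusted p of 0.104, 0.140 and 0.200). Iars, Eprs, Gars, Nars, Tars and Lars had log2 fold changes between -0.16 and 0.19, and Wars, for tryptophan, came highest (log2 fold change 0.44 ± 0.20, SE, edgeR adjusted p = 0.168). The 5 synthetases with TGATGNAA in their window, of 7 with an entry, are Aars, Gars, Iars, Tars and Yars, and none of them passed. The matches of Aars, Gars and Tars that lie before the RefSeq start are shown for comparison with the lower genes above. That of Aars lies inside the gene as placed in the deposited table.
Aars (chr8:111033704-111033763, plus strand): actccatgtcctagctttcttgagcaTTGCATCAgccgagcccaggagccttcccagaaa
Gars (chr6:55037945-55038004, plus strand): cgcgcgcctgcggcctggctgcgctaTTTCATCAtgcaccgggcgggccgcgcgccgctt
Tars (chr15:11399640-11399699, minus strand): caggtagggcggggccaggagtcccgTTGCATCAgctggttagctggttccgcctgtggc
The matches in Aars and Tars read TTGCATCA, the same letters as in Chac1 and Nupr1, so that the letters of the match did not set apart the genes that were lower. Library 3 of the oxPAPC group held the highest value there in 11 of 11 synthetases, and their summed level was 769, 686, 1187 and 885 CPM in oxPAPC libraries 1 to 4, against 910.3, 1125, 891 and 1155 CPM in control libraries 1 to 4. Without that library 3 synthetases were lower, Cars, Aars (0.0263) and Sars (0.0274, edgeR adjusted p).

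Ratios of counts within a library do not depend on scaling, and 6 pairs, chosen after their values were seen, are given as a description with no test. In each pair the oxPAPC and control libraries did not overlap. Ddit3 counts per Atf4 count were 0.0401, 0.0446, 0.0411 and 0.0570 in oxPAPC libraries 1 to 4, against 0.125, 0.194, 0.139 and 0.134 in control libraries 1 to 4. The difference of means was -1.69 on the log2 scale, with fewer CHOP transcripts per Atf4 transcript in every oxPAPC library. For Sesn2 per Atf4 the log2 difference was 0.71. Along the proline path, Pycr1 per Aldh18a1 was 0.0420, 0.0262, 0.0351 and 0.0303 in oxPAPC libraries 1 to 4, against 0.0622, 0.0890, 0.0824 and 0.0782 in control libraries 1 to 4, a log2 difference of -1.23. For the serine hydroxymethyltransferases, Shmt1 per Shmt2 was 0.301, 0.330, 0.275 and 0.340 in oxPAPC libraries 1 to 4, against 0.178, 0.107, 0.201 and 0.135 in control libraries 1 to 4, a log2 difference of 1.04. Between the ASCT genes, Slc1a4 per Slc1a5 was 0.0523, 0.0587, 0.0637 and 0.0594 in oxPAPC libraries 1 to 4, against 0.142, 0.172, 0.149 and 0.165 in control libraries 1 to 4, and the log2 difference of -1.42 compares with an SD (n = 4 each) of 0.118 among oxPAPC and 0.128 among control libraries. Among synthetases, Cars per Rars, the arginine enzyme, was 0.719, 0.985, 0.690 and 0.722 in oxPAPC libraries 1 to 4, against 1.93, 2.60, 1.84 and 1.75 in control libraries 1 to 4, a log2 difference of -1.38.

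Levels also moved together between libraries of 1 group. Library 3 of the oxPAPC group held its highest value in 35 of the 43 genes (81.4%), against 33.9% of all genes tested. The lowest value lay in oxPAPC library 2 in 29 of the 43 genes, against 23.9% of all genes tested. Among the enzymes library 3 was highest in 11 of 12 and among the transporters in 6 of 7. In the control group, library 2 was highest in 21 genes, against 24.1% of all genes tested, and library 3 lowest in 25, against 31.8%. Control library 3 was also the highest of its group in 34.0% of all genes tested. Gm26917 took 9.51% of the counts of oxPAPC library 3. Its share was 9.35% in oxPAPC library 4, which held the highest value of its group in only 2 of the 43 genes. Control libraries 2 and 3 had 29.1% and 8.59%, the highest and lowest shares of their group. The part of the Gm26917 share in these levels was not tested. With oxPAPC library 3 and control library 2 left out together, 9 of the 43 genes were lower and 2 higher.

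**Figure D4:**
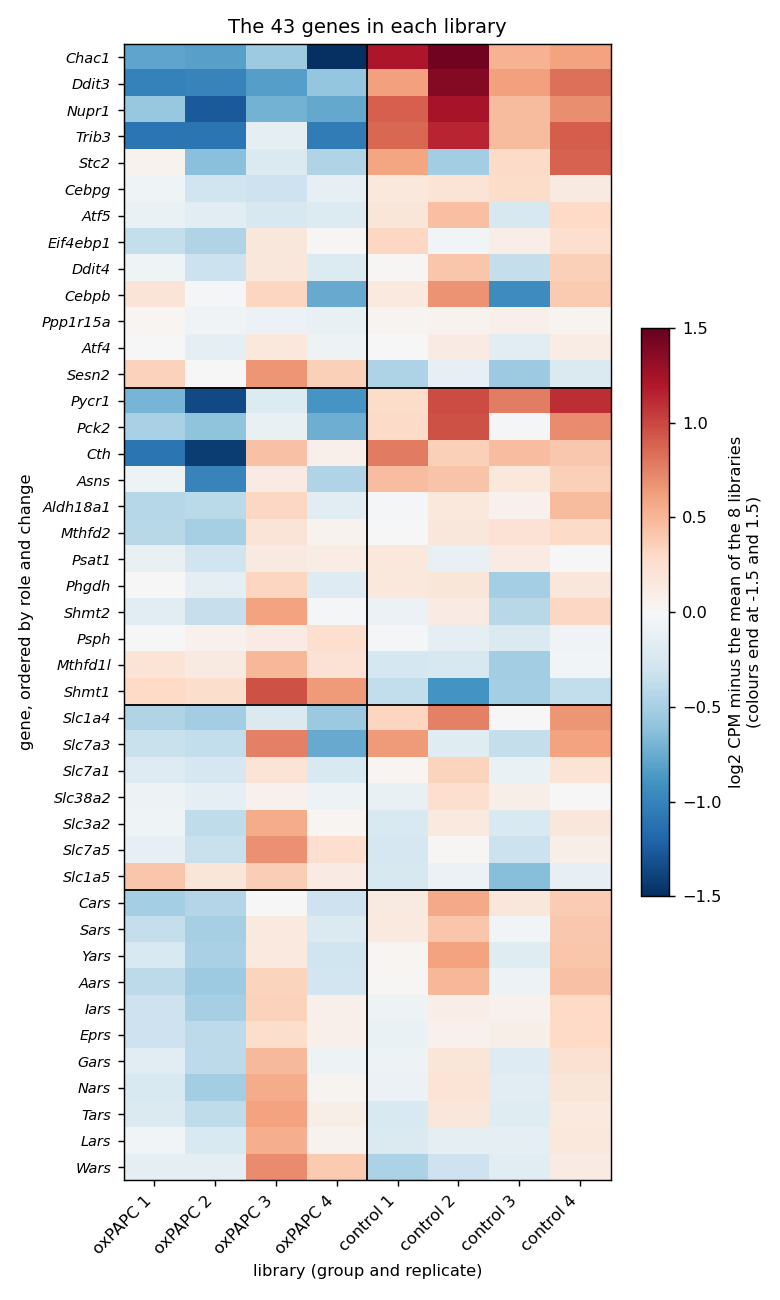
Log2 CPM of the 43 genes (rows, by role) in each of the 8 libraries (columns, oxPAPC left of control), minus the mean of the 8 libraries; red is above and blue below that mean, and colours end at -1.5 and 1.5. Ddit3, Chac1 and Nupr1 are blue in all oxPAPC columns and red in all control columns, Trib3 likewise but pale in oxPAPC 3, and Tars, Lars and Wars are reddest in oxPAPC 3.

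Other genes of the pathway were taken in 7 lists by role, chosen with earlier results of these data known. Their counts are therefore a description and no independent test. Of 138 such genes 16 were higher and 13 lower, 15 in all without control replicate 2 and 16 without oxPAPC replicate 4. Over all genes tested 6.75% were higher and 6.52% lower, 13.3% in all, to be set beside the count of each list. Among 22 other targets of ATF4 and CHOP, 8 were lower and 2 higher, with a median log2 fold change of -0.51. The lower ones include Tubb2b, a tubulin gene (log2 fold change -1.49, edgeR adjusted p = 0.000117), Klhl24, an adaptor for ubiquitin ligases (log2 fold change -1.31, adjusted p = 0.000103), and Jdp2, a bZIP repressor (log2 fold change -0.94, adjusted p = 0.00411). The others are Bbc3, Gpt2, Vegfa, Herpud1 and Rhbdd1, with log2 fold changes of -0.83 to -0.49. The count of lower targets was 3 with library size scaling, 4 without control replicate 2 and 5 without oxPAPC replicate 4. The 2 that were higher are Atf3, a bZIP factor induced by many stimuli, and Ero1l, an oxidase of the endoplasmic reticulum, with log2 fold changes of 1.87 and 0.66 (edgeR adjusted p of 4.25e-05 and 0.0109). Of the 16 targets with a promoter entry, 6 held TGATGNAA in the window. Among these, Atf3 was higher, Herpud1 and Jdp2 were lower and the others did not pass. Of 17 genes of the eIF2alpha kinases, eIF2 and its exchange factor eIF2B, 1 was higher and 1 lower. The higher one is Eif2ak2, the kinase PKR that senses double-stranded RNA, with 32.5 to 47.9 CPM in oxPAPC libraries and 13.7 to 20.5 CPM in control libraries (log2 fold change 1.35 ± 0.17, SE, edgeR adjusted p = 0.000272). Eif2ak4, the kinase GCN2 that senses uncharged tRNA, had a log2 fold change of 0.03 (edgeR adjusted p = 0.933). Eif2ak3, the endoplasmic reticulum kinase PERK, was the lower one (log2 fold change -0.55 ± 0.17, SE, edgeR adjusted p = 0.0484), a call lost without any one of 7 libraries, all but control replicate 3 (edgeR adjusted p of 0.0613 to 0.160). It was also lost with RLE scaling (0.0605), library size scaling (0.183), no filter (0.0554), DESeq2 (0.0551) and limma-voom (adjusted p = 0.0576).

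Of 12 cytosolic synthetases and scaffold genes outside the 11, 4 were higher and none lower, with a median log2 fold change of 0.29, against -0.16 for the 11 above. Rars had 35.2 to 68.1 CPM in oxPAPC libraries and 26.9 to 35.2 CPM in control libraries (log2 fold change 0.78 ± 0.18, SE, edgeR adjusted p = 0.0129). The others, Hars for histidine and the scaffold genes Aimp2 and Eef1e1, lost their calls without control replicate 2 and without oxPAPC replicate 4, which left 1 call each time, and 2 calls were left without oxPAPC replicate 1. With oxPAPC library 3 and control library 2 left out together all 4 calls were lost (edgeR adjusted p = 0.0683 for Rars). None of the 8 with a promoter entry held TGATGNAA in the window. Of 31 further enzymes of serine, one-carbon and amino acid metabolism 6 were higher (Mthfd1, Tyms, Gcsh, Sfxn1, Gart and Atic) and 2 lower (Aldh1l2 and Amt). Without control replicate 2 there were 3 higher and 1 lower, there were 4 higher and 1 lower without oxPAPC replicate 4, and 2 higher and 1 lower with oxPAPC library 3 and control library 2 both left out. Mthfd1, the cytosolic folate enzyme that takes up formate, had 45.6 to 93.4 CPM in oxPAPC libraries and 30.4 to 38.9 CPM in control libraries (log2 fold change 0.92 ± 0.20, SE, edgeR adjusted p = 0.00728). Tyms, which makes thymidylate, had 71.6 to 93.5 CPM in oxPAPC libraries and 32.0 to 55.7 CPM in control libraries (log2 fold change 0.82 ± 0.17, SE, edgeR adjusted p = 0.00608). Both stood without overlap between the groups, as did Shmt1 above. Aldh1l2, a mitochondrial folate enzyme, was low and lower with oxPAPC, with 0.397 to 0.746 CPM in oxPAPC libraries and 1.33 to 2.24 CPM in control libraries (log2 fold change -1.53 ± 0.33, SE, edgeR adjusted p = 0.00752). Among 13 further transporters, Slc6a6, the taurine carrier, was higher (log2 fold change 0.72, edgeR adjusted p = 0.0112) and Slc43a2, a carrier of large neutral amino acids, lower (-0.48, adjusted p = 0.0235). Both calls were lost with oxPAPC library 3 and control library 2 left out together, and that of Slc43a2 also with library size scaling (0.289) and without oxPAPC replicate 1, 2 or 4 or control replicate 2 or 4 (edgeR adjusted p of 0.0556 to 0.0870).

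**Figure D5:**
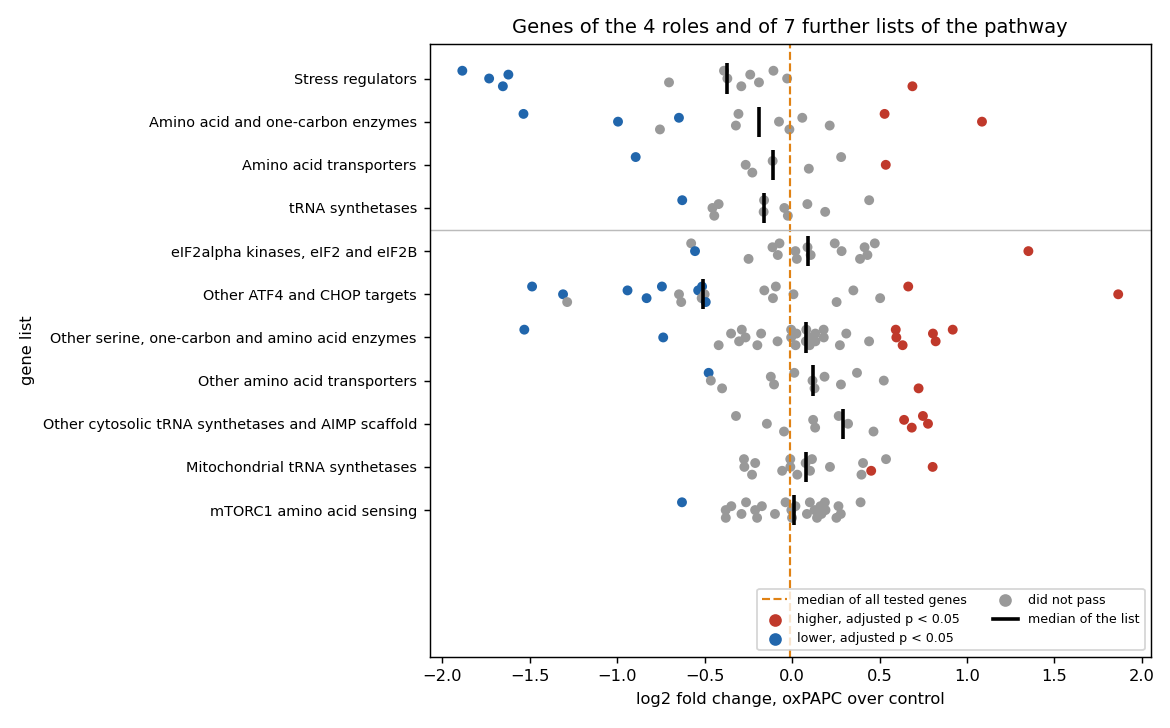
Log2 fold change, oxPAPC over control, of single genes in the 4 roles (above the line) and in 7 further lists of the pathway (below it), with black bars at list medians and a dashed line at the median of all genes tested. The other ATF4 and CHOP targets have their median at -0.51 and the other cytosolic synthetases at 0.29. The lists were chosen with earlier results of these data known.

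The authors' deposited table, a DESeq2 fit, lists 4 of the 43 genes as higher and 9 as lower (adjusted p below 0.05), where 14.4% of its genes with a p were called. It shares 12 calls with edgeR, all in the same direction. Cebpg was called only in the authors' deposited table (adjusted p = 0.0464) and Asns only by edgeR (adjusted p = 0.0508 in the authors' deposited table). No strand setting of the counting is stated in the labels, and reads of genes that overlap on opposite strands then cannot be told apart. Such overlap covers 20.7% of the exons of Cebpb and 10.4% of Psph. Of the called genes it covers 4.74% of Shmt1, 3.97% of Ddit3 (with Mars), 3.21% of Cars and 0.679% of Pck2. Overlap on the same strand, which no strand setting parts, covers 14.3% of Aars and 6.13% of Ddit3 (with a second annotated entry of the same symbol).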

How the data were processed

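Per the labels' protocols, kit-purified RNA went into poly(A)-selected libraries. DESeq2 1.30.1, featureCounts 2.0.2 and STAR 2.7.8a, on build GRCm38.p6, are named in the submitters' processing notes. The authors deposited whole-number counts per gene and library, not normalized, together with their own log2 fold changes, the linear fold, a test score (headed stat), p-values and mean signal of normalized counts, per the file headers. No gene of the table falls short of 5 counts in 2 libraries.

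Libraries were grouped by their titles. Counts were scaled by TMM, 16434 of 19330 genes passed filterByExpr, and oxPAPC was set against control by the edgeR 4.0.16 quasi-likelihood test (R 4.3.3; Benjamini-Hochberg, threshold 0.05). CPM values are after TMM scaling, and the SE is the size of the log2 fold change over √F, with F from the test. Levels per kb divide CPM by the union of annotated exons (GENCODE M21). The common biological coefficient of variation was 0.207. On counts simulated for oxPAPC against control over 16434 genes, 7 of 67 simulated 1.5-fold changes were recovered, 38 of 67 at 2-fold and 64 of 66 at 4-fold; 11 of 120 calls were false. Promoter windows come from RefSeq (GRCm38.p6).

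The genes, their roles and the further lists were chosen with earlier results of these data known. Every one of the 43 genes is named, those past the threshold and Atf4 with the value of each library, and genes named from the further lists are called ones that averaged at least 1 CPM, beside Eif2ak4, Foxp3, Cd3e and Cd28. Eif2ak4 and the pairs for ratios were chosen after their values were seen. Alternatives were RLE and library size scaling, structural RNA left out, no filter, a filter at 5 CPM, DESeq2 1.42.0, limma-voom (limma 3.58.1), the replicate number as a block, a GC and length offset, and each library left out, and, added after the data were seen, 2 libraries left out together.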

Additional observations from a re-analysis of the deposited data

Results flagged for a closer look

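A library far from the other 3 of its group was sought in 144 groups of 4 values, taken from the 43 genes and the called genes of the further lists. Chance gives about 1 in 20 groups, here about 7, and 8 were found. Trib3 had 4.76 CPM in oxPAPC replicate 3, above 2.44 to 2.53 CPM in the others of its group. Phgdh had 314 CPM in control replicate 3, below 499 to 507 CPM in the others of its group. Slc7a1 had 238 CPM in oxPAPC replicate 3, above 174 to 180.4 CPM in the others of its group. Eif2ak2 had 20.5 CPM in control replicate 3, above 13.7 to 14.6 CPM in the others of its group. Herpud1 had 43.9 CPM in control replicate 1, below 50.9 to 51.6 CPM in the others of its group. Rhbdd1 had 24.9 CPM in control replicate 4, below 31.6 to 31.9 CPM in the others of its group. Tyms had 93.5 CPM in oxPAPC replicate 4, above 71.6 to 74.5 CPM in the others of its group. Gart had 56.5 CPM in control replicate 4, above 37.5 to 39.4 CPM in the others of its group. Of the 43 genes Trib3 was the only one of these also called, and it stayed lower with each library left out. No explanation of these values was tested.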

How the results depend on the processing

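Of the 13 genes called, 8 kept their direction and call in every alternative that tested them, and Sesn2, Asns, Mthfd1l, Slc1a5 and Cars kept their direction but lost the call in at least 1. Of the 30 others, 12 turned in sign in at least 1 alternative without passing. What caused these differences was not tested. All genes, of which 2182 were called, gave 3282 with the GC and length offset, 1322 with oxPAPC replicate 3 and control replicate 2 both left out and 1390 to 2134 with 1 left out, the fewest without control replicate 2. The 43 genes gave 9 to 13 calls with 1 library left out, the stress regulators 5 each time, the enzymes 3 to 4, the transporters 1 each time, the synthetases 0 to 3 and the further lists 15 to 26. With those 2 left out the transporters gave 1 and the further lists 14. The synthetases gave 0 with library size scaling, 2 where genes had to average 5 CPM and 3 with the offset; the filter at 5 CPM removed Chac1, Stc2, Cth and Slc7a3. With the replicate block, edgeR called 1453 genes in all, 9 of the 43 (adjusted p of 0.0537 for Sesn2, 0.0795 for Asns, 0.0786 for Mthfd1l and 0.0833 for Slc1a5, whose calls it ended), 3 enzymes, 1 transporter and 19 of the further lists (Eif2ak3 at 0.0780 and Castor1 at 0.0537). Deviations from the group means correlated at 0.32, -0.053, -0.37 and -0.035 between libraries of the same number. For 2 of 8 libraries that was the best correlation. No pairing was assumed, though with so few libraries these correlations cannot exclude one. Signs of log2 fold changes turned with library size scaling for Atf4 (0.12), Ppp1r15a (0.021), Psat1 (0.056), Phgdh (0.15), Slc38a2 (0.027), Gars (0.11) and Nars (0.13), all near the shift of 0.12 of all genes or below it except Phgdh and Nars. Phgdh also turned with RLE scaling (0.0050) and DESeq2 (0.011), and Nars with DESeq2 (0.0068). With those 2 libraries left out Shmt2 (-0.14), Slc3a2 (-0.052), Lars (-0.0099) and Tars (-0.081) turned. With 1 library left out the ranges were -0.088 to 0.014 for Atf4, -0.43 to 0.017 for Cebpb, -0.13 to 0.0061 for Psat1, -0.16 to 0.050 for Phgdh, -0.18 to 0.18 for Shmt2, -0.11 to 0.22 for Slc3a2, -0.25 to 0.068 for Gars, -0.26 to 0.12 for Nars and -0.15 to 0.21 for Tars. The fewest counts lay behind Slc7a3, Cth and Stc2, at most 36, 49 and 78 in any library; whether depth limited their calls was not tested.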

Other observations

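Of 17 mitochondrial tRNA synthetases, 2 (Yars2 and Mars2) were higher and none lower, with a median log2 fold change of 0.08. Over all genes tested 6.75% were higher and 6.52% lower. Yars2, the mitochondrial tyrosine enzyme, had 19.0 to 28.9 CPM in oxPAPC libraries and 9.81 to 15.7 CPM in control libraries (log2 fold change 0.80 ± 0.18, SE, edgeR adjusted p = 0.00961), while the cytosolic tyrosine enzyme Yars had a log2 fold change of -0.44 (edgeR adjusted p = 0.140). The call of Mars2, for methionine, was lost with the GC and length offset (0.0524) and without any one of 7 libraries, all but control replicate 2 (edgeR adjusted p of 0.0550 to 0.132). Of 26 genes of amino acid sensing upstream of mTORC1, none was higher and 1 was lower, Castor1, an arginine sensor, with 13.3 to 19.4 CPM in oxPAPC libraries and 19.7 to 28.0 CPM in control libraries (log2 fold change -0.63 ± 0.17, SE, edgeR adjusted p = 0.0220). Its call was lost without oxPAPC replicate 1, 2 or 4 or control replicate 2 or 4 (edgeR adjusted p of 0.0582 to 0.0750) and with library size scaling (0.161).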
